A study of Mus musculus with 15 samples.

Results

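The vascular miRNAs mir-126, mir-143 and mir-145 were examined in left ventricular (LV) tissue of mice, in counts of reads per mature miRNA. All rows whose name begins with mir-126, mir-143 or mir-145 as a complete precursor number were taken, which gave 10 of the 1836 rows, the 5p and 3p arms of mir-126a, mir-126b, mir-143, mir-145a and mir-145b. AGAT (arginine:glycine amidinotransferase) makes homoarginine and guanidinoacetate, from which creatine is formed, and the study asked how its loss, and homoarginine given to mice that lack it, affect miRNAs of the heart. MiRNA was sequenced in 15 mice, 5 in each of 3 groups, all of them littermates on a C57BL/6J background. Wt mice carried the intact gene and were untreated, AGAT-/- mice lacked AGAT and were untreated, and AGAT-/-hArg mice lacked AGAT and received homoarginine by osmotic mini pumps for 4 weeks. The age of the mice is not given in the sources used here. AGAT is not measured by miRNA counts, so genotype could not be checked in these data. Wt libraries held between 415608 and 486204 reads, AGAT-/- libraries between 365634 and 557398, and AGAT-/-hArg libraries between 389359 and 570492. According to the labels, lane 8 of the sequencer held every wt and AGAT-/- library and lane 2 every AGAT-/-hArg library. Effects of the lane and of homoarginine therefore cannot be told apart.

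Mir-126 is made in endothelial cells, where it favours vessel growth and the response to VEGF by repressing inhibitors of its signalling. Mir-143 and mir-145 are transcribed together, are abundant in vascular smooth muscle and favour its contractile state. A miRNA precursor is a hairpin with a 5p and a 3p arm, of which mostly a single arm is loaded as the guide that represses targets; for these families the arms usually described as guides are mir-126a-3p, mir-143-3p and mir-145a-5p.

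The mature sequences of mir-126 are shown because mir-126a and mir-126b are read from opposite strands of the same place, which bears on how their counts can be read. RefSeq sequences (GRCm38.p6) were matched for 3 of the 10 rows. The other rows were mir-126a-5p and both arms of mir-143, mir-145a and mir-145b. Each sequence is written 5′ to 3′, and capitals mark the seed, bases 2 to 8.
miR-126a-3p: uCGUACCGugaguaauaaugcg
miR-126b-3p: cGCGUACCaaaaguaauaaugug
miR-126b-5p: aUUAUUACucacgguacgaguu
No seed was the same in any pair of these. The seeds of miR-126a-3p and miR-126b-3p shared a run of 6 bases, and the whole mature sequences a run of 10. MiR-126b-5p was complementary to miR-126a-3p over 19 bases in a row. The precursors are shown with the mature sequences above in capitals.
Mir126a precursor: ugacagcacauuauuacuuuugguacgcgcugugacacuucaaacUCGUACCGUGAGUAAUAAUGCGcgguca
Mir126b precursor: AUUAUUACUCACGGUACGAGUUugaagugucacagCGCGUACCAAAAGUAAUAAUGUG
The mir-126a precursor lies on chromosome 2 from 26591357 to 26591429 on the plus strand (GRCm38, GENCODE M21 annotation). The mir-126b precursor lies within it, from 26591363 to 26591420 on the minus strand, and its 58 bases are the reverse complement of that stretch. Both lie in the gene Egfl7 (26580014 to 26593120, plus strand), which codes for a protein secreted by endothelial cells. Of the 10 transcripts that span the place, from Egfl7 and the overlapping Gm20532, 9 have it in an intron and 1, a retained-intron transcript, has it in an exon. Whether the counting used the strand of the reads is not given in the sources used here, so reads of mir-126a and mir-126b cannot be told apart with certainty.

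The mir-145a and mir-143 precursors are neighbours on the minus strand of chromosome 18 (GRCm38), from 61647825 to 61647894 and from 61649196 to 61649258, with 1301 bases between them. They overlap no other gene of the GENCODE M21 annotation, and both lie within Carmn (61645878 to 61665538 in RefSeq), a non-coding RNA gene that hosts them. Mir-145b lies apart from this pair, from 69022199 to 69022273 on the minus strand, and overlaps no other annotated gene. Mir-145a and mir-145b are paralogues, and reads that match both could have been split between their rows, so the division of reads between mir-145a and mir-145b is uncertain.

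The rows differed widely in level, and most reads fell on a single arm. Over all 15 libraries the 10 rows held 80370 of 6817774 reads, which is 1.18%. Of these, 98.6% were on mir-145a-3p, with a total of 79253 reads, the 8th most abundant row of the 1164 with reads. The 3 most abundant rows, mir-378a-3p, mir-378c-5p and mir-151-3p, held between 71.5% and 73.7% of the reads of each library. Ranks hold among the rows as deposited, in which many arms are at 0, and are not ranks in the tissue. Mir-145b-5p followed at rank 122 with 869 reads, mir-143-5p at rank 265 with 106 and mir-126a-3p at rank 270 with 100. The other rows with reads were mir-145a-5p (16), mir-126a-5p (12), mir-126b-3p (12) and mir-126b-5p (2). Mir-143-3p and mir-145b-3p had no reads in any library, and 672 of the 1836 rows shared this. A count of 0 in all libraries allows up to 3 reads, or 0.440 CPM (reads of a row relative to all reads counted, on the usual scale). Such limits cover counting error only.

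**Figure D1:**
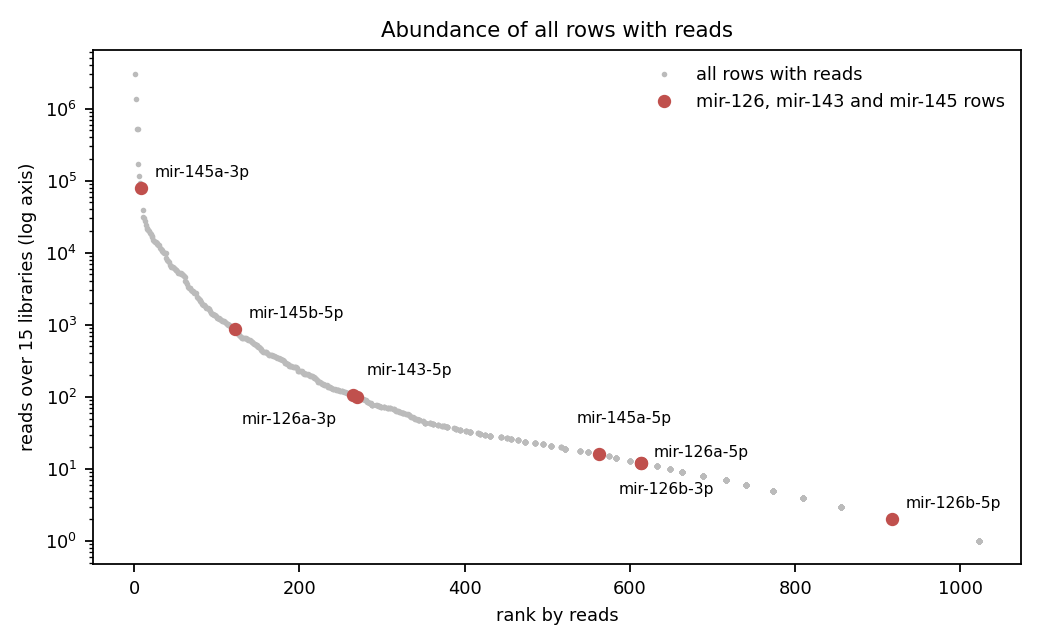
Reads summed over the 15 libraries (log axis) against the rank of the row by reads, for the 1164 rows with reads; red points are the rows of mir-126, mir-143 and mir-145. Mir-145a-3p is at rank 8, while mir-143-5p and mir-126a-3p are at ranks 265 and 270; mir-126a-5p and mir-126b-3p share a point at 12 reads.

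For mir-143 and mir-145a the arm that held the reads was not the one usually described as the guide. Arm names are those of the deposited rows and could not be checked against reads here. Each value and share of an arm holds for the row as named, which may carry a wrong arm name or lack reads. Outside the vascular rows, mir-210-3p had 0 reads in every library and mir-296-5p had 1 read over all libraries. Both are among the significantly regulated miRNAs listed by the study for AGAT-/- against wt mice. For these rows the counts used here are thus not those behind that list, and the cause was not tested. Shares of arms therefore hold for these counts and do not show which arm prevails in the tissue. Of the reads on mir-145a, 0.0202% were on the 5p arm, with 16 of 79269 reads (95% exact binomial interval 0.0115% to 0.0328%). For mir-145b all 869 reads were on the 5p arm, and for mir-143 all 106 were. Of the reads on mir-126a, 12 of 112 were on the 5p arm, or 10.7% (5.66% to 18.0%). These intervals pool the mice, take reads as independent and cover counting error only. By group the counts were 0 of 40 reads in wt mice, 4 of 38 in AGAT-/- mice, 3 of the 4 from mouse 6, and 8 of 34 in AGAT-/-hArg mice, 7 of the 8 from mice 14 and 15, and the difference between groups was not tested. Arms without reads were common in the table. Among the 918 precursors, 357 had reads on both arms, 181 on the 5p arm alone, 269 on the 3p arm alone and 111 on none. Mir-1a-1-3p, mir-133a-1-3p and mir-208a-3p, the guide arms of miRNAs of heart muscle and named after their values were seen, were also at 0 in every library. Of the 14 heart muscle rows described below, 6 were at 0, while mir-499-5p held 6290 reads in all. Levels in these counts are therefore levels of rows, and a row at 0 gives no statement on the tissue.

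The endothelial and smooth muscle origin was compared with the counts. Mir-126a-3p, the endothelial marker among the rows, had between 3 and 13 reads per library. The guide arms that mark smooth muscle, mir-143-3p and mir-145a-5p, had at most 3 reads in any library. The label vascular was therefore carried in these counts by mir-145a-3p and mir-145b-5p. In tissue of mixed cells, fewer vascular cells and less miRNA per cell cannot be told apart.

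Levels in each mouse are CPM scaled by edgeR's TMM factors, which correct for differences in library composition. With these depths 3 reads amount to 5.00 CPM in the deepest library and 8.35 CPM in the shallowest. Mir-145a-3p was at 9839.6, 9538, 9482, 11806 and 11851 CPM in wt mice 1 to 5. In AGAT-/- mice 6 to 10 it was at 13760, 11338, 10861, 11339 and 9844 CPM. In AGAT-/-hArg mice 11 to 15 it was at 14202, 9974, 16769, 11880.3 and 12515 CPM. Mouse 13 was the highest of all and wt mouse 3 the lowest, and the ranges of all 3 groups overlapped, as mouse 12 lay within both other groups. The means were 10503 ± 1217 CPM in wt, 11429 ± 1439 CPM in AGAT-/- and 13068 ± 2563 CPM in AGAT-/-hArg mice (SD, n = 5 each). The coefficient of variation between mice was 11.6%, 12.6% and 19.6%, against 1.49%, 1.39% and 1.27% from counting alone, so that depth did not limit this row.

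Mir-145b-5p was at 127, 132, 79.8, 134 and 93.2 CPM in wt mice 1 to 5. It was at 145.2, 138, 89.0, 111 and 97.8 CPM in AGAT-/- mice 6 to 10. In AGAT-/-hArg mice 11 to 15 the levels were 119.9, 110.1, 187, 139 and 205 CPM. Mice 13 and 15 were above all others, while mice 11 and 12 were within the range of the wt and AGAT-/- mice. The means were 113 ± 24.9 CPM in wt, 116 ± 24.7 CPM in AGAT-/- and 152 ± 41.7 CPM in AGAT-/-hArg mice (SD, n = 5 each). Each library held between 32 and 100 reads of this row.

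Mir-143-5p was at 21.8, 11.6, 8.40, 20.2 and 7.36 CPM in wt mice 1 to 5. In AGAT-/- mice 6 to 10 it was at 9.52, 20.0, 5.57, 14.7 and 8.69 CPM. In AGAT-/-hArg mice 11 to 15 it was at 12.4, 30.0, 14.2, 27.8 and 14.3 CPM. Mice 12 and 14 were the highest, and the other 3 AGAT-/-hArg mice were within the range of both other groups. The means were 13.9 ± 6.73 CPM in wt, 11.7 ± 5.69 CPM in AGAT-/- and 19.7 ± 8.42 CPM in AGAT-/-hArg mice (SD, n = 5 each). With between 2 and 18 reads per library, counting alone gave a coefficient of variation of 40.8% in wt mice, close to the 48.5% measured between them.

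Mir-126a-3p, whose sequence is the first shown above, was at 26.2, 16.2, 27.3, 10.1 and 9.81 CPM in wt mice 1 to 5. In AGAT-/- mice 6 to 10 it was at 19.0, 20.0, 22.3, 8.40 and 6.52 CPM. In AGAT-/-hArg mice 11 to 15 it was at 6.20, 8.34, 11.8, 15.1 and 14.3 CPM. Wt mice 1 and 3 were the highest, AGAT-/-hArg mouse 11 and AGAT-/- mouse 10 the lowest, and all groups overlapped. The means were 17.9 ± 8.45 CPM in wt, 15.3 ± 7.24 CPM in AGAT-/- and 11.2 ± 3.84 CPM in AGAT-/-hArg mice (SD, n = 5 each). Mir-126a-5p had no reads in the wt mice, 3 and 1 reads in AGAT-/- mice 6 and 7, and 1, 3 and 4 reads in AGAT-/-hArg mice 11, 14 and 15. The other mice of these groups had none. Against wt mice this row held too few reads for the filter of the main test. When every row with at least 1 read was tested, it did not pass in AGAT-/- (FDR = 0.489, edgeR) or AGAT-/-hArg mice (FDR = 0.119, edgeR), and no fold is given, since a fold fitted against a group at 0 depends on the prior count. Mir-126b-3p had at most 3 reads in any library, mir-145a-5p at most 3 and mir-126b-5p at most 1.

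**Figure D2:**
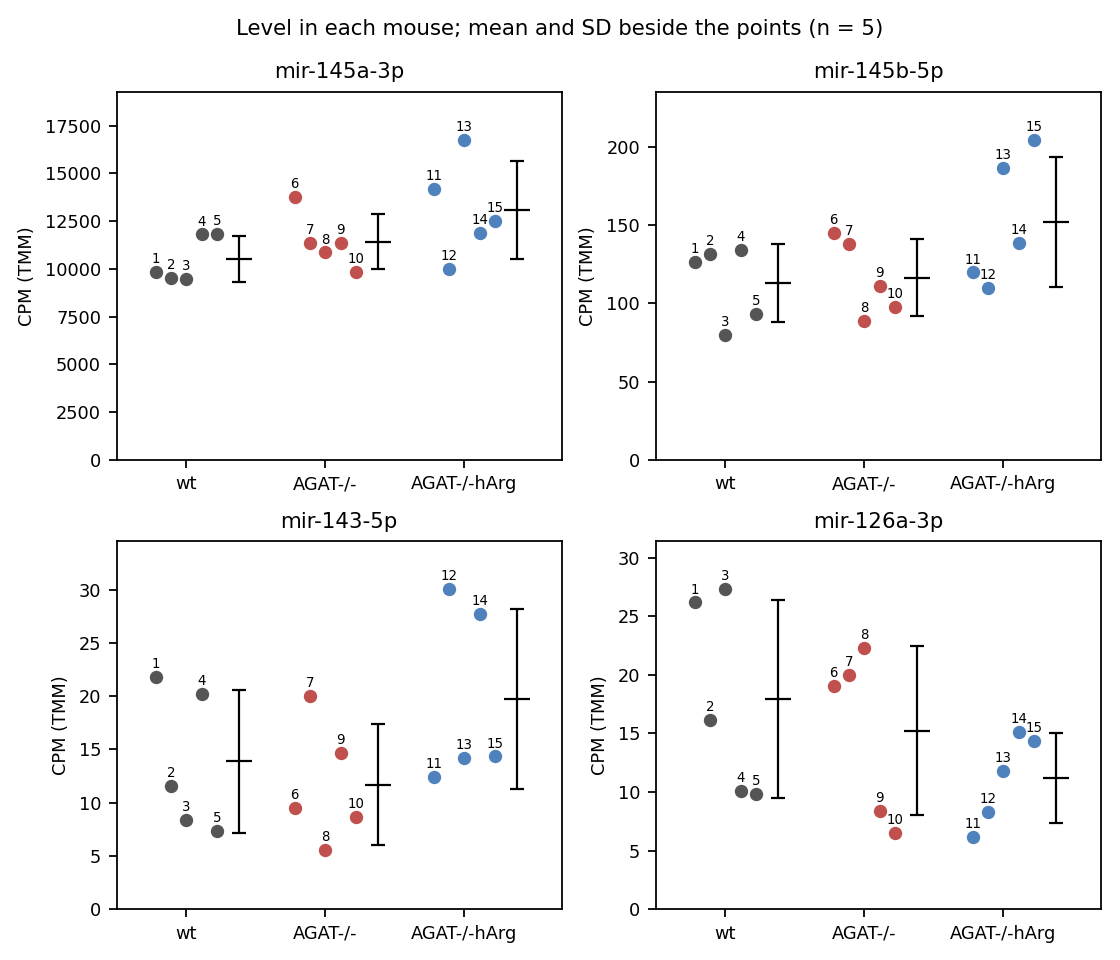
Level of 4 rows in each mouse in CPM (TMM) by group; points are mice with their number, and the bar beside them is the mean with the SD (n = 5). For mir-145a-3p the AGAT-/-hArg mice spread from 9974 to 16769 CPM and the wt mice from 9482 to 11851 CPM, and the groups overlap in all 4 rows.

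The comparison of AGAT-/- with wt mice, all on lane 8, addressed the loss of AGAT. None of the vascular rows passed the test. Mir-145a-3p had a log2 fold change of 0.10 (SE 0.09, 95% interval -0.09 to 0.29, FDR = 0.779, edgeR), a fold of 1.07, and only mouse 6 lay above all wt mice. For mir-145b-5p it was 0.03 (-0.35 to 0.41), with 2 of 5 AGAT-/- mice above the highest wt mouse. For mir-143-5p it was -0.19 (-1.04 to 0.66), and for mir-145a-5p, with 12 reads in all, 0.36 (-1.43 to 2.15). For mir-126a-3p it was -0.30 (SE 0.39, -1.12 to 0.52, FDR = 0.893, edgeR), and 2 AGAT-/- mice were below the lowest wt mouse. The intervals of mir-126a-3p and mir-143-5p reach down to folds of 0.460 and 0.485, so falls of that size remain possible for these rows. The interval of mir-145a-3p spans folds of 0.941 to 1.23. With animal number added as a covariate mir-126a-3p was at 0.28 in place of -0.30, mir-145b-5p at 0.31, mir-145a-3p at 0.20, mir-145a-5p at 0.81 and mir-143-5p at -0.11, and none passed. Animal number is a separate label from the mouse numbers used here. It was higher in AGAT-/- mice 7 to 10 than in any wt mouse, so it overlaps with genotype. With wt mouse 1 left out mir-143-5p was at 0.04. The sign of mir-145b-5p also turned, to -0.05 without wt mouse 3 and to values nearer 0 without AGAT-/- mouse 6 or 7. Mir-126a-3p was at -0.07 without wt mouse 3 or AGAT-/- mouse 10 and between -0.44 and -0.07 with a mouse left out, and mir-145a-3p was between 0.07 and 0.20, the highest without wt mouse 5. Mir-145a-5p, with enough reads to be tested in 6 of these 10 fits, was between 0.07, without wt mouse 3, and 0.60, without AGAT-/- mouse 8.

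EdgeR's quasi-likelihood test with Benjamini-Hochberg adjustment was run on all 562 rows with more than 10 reads over the 10 libraries, and 5 of the 10 vascular rows were among these. Of the 562 rows, 12 or 2.14% differed at FDR ≤ 0.05, and 0 of the 5. At an unadjusted p under 0.05 it was 60 rows or 10.7%, and again 0 of the 5. Limma-voom also called 0 of the 5, and 15 of the 562 rows, with 63 or 11.2% at an unadjusted p under 0.05. DESeq2 called 0 of the 4 for which it gave an FDR, all but mir-145a-5p, and 14 of the 562 rows, with 43 or 7.65% at an unadjusted p under 0.05. None of the 5 was at an unadjusted p under 0.05 in either tool. The median log2 fold change was 0.03 over the 5 rows and -0.04 over all rows tested. As a scale, the rows with the lowest FDR were mir-5119-3p with a fold of 0.0333, mir-215-5p with 0.613 and mir-470-5p with 3.47. The log2 fold change of mir-5119-3p, -4.91, was -4.24 without wt mouse 5, -5.71 without AGAT-/- mouse 8 and -6.11 with animal number as a covariate.

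The comparison of AGAT-/-hArg with AGAT-/- mice addressed homoarginine in mice without AGAT, and lane differed in the same way. None of the vascular rows passed. Mir-145a-3p had a log2 fold change of 0.20 (SE 0.11, 95% interval -0.02 to 0.41, FDR = 0.706, edgeR), with 2 of 5 AGAT-/-hArg mice, 11 and 13, above the highest AGAT-/- mouse. Without AGAT-/-hArg mouse 13 it was 0.06. Mir-145b-5p was at 0.37 (-0.01 to 0.76, FDR = 0.687, edgeR) and mir-143-5p at 0.70 (-0.08 to 1.48, FDR = 0.717, edgeR), each with 2 mice above the highest AGAT-/- mouse. Mir-145b-5p was at 0.23 without AGAT-/-hArg mouse 15, and mir-143-5p at 0.44 without AGAT-/-hArg mouse 12. Mir-126a-3p was at -0.45 (-1.27 to 0.38). Mir-126a-5p and mir-145a-5p, with 12 and 11 reads over the 10 libraries, were at 0.83 (-1.21 to 2.88) and -0.79 (-2.57 to 1.00), and with a mouse left out between 0.52 and 1.20 in 7 fits and between -1.03 and -0.50 in 4.

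Of the 580 rows tested here, 4 or 0.690% differed at FDR ≤ 0.05 in edgeR's test, and 0 of the 6 vascular rows among them. At an unadjusted p under 0.05 the count was 43 rows or 7.41%, and 0 of the 6; with total counts in place of TMM factors it was 51 rows or 8.79%, and 2 of the 6, mir-145a-3p (log2 fold change 0.27, FDR = 0.427, edgeR) and mir-145b-5p (0.44, FDR = 0.466, edgeR), while the median of all rows tested was 0.08 in place of 0.02. DESeq2 and limma-voom called 0 of the 6 as well, and 5 and 4 of the 580 rows. At an unadjusted p under 0.05 they had 28 rows or 4.83% and 53 rows or 9.14%, and 0 of the 6 in either. The median log2 fold change of the 6 rows was 0.28, against 0.02 over all rows tested. The rows with the lowest FDR were mir-378b-3p with a fold of 4.02, mir-3969-5p with 0.0225 and mir-101c-3p with 0.681.

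AGAT-/-hArg and wt mice differ in genotype, supplementation and lane together. Here mir-145a-3p was nearest to the threshold. Its share of all reads was 1.02 ± 0.0962% in wt and 1.36 ± 0.290% in AGAT-/-hArg mice (SD, n = 5 each). The log2 fold change was 0.31 (SE 0.11, 95% interval 0.07 to 0.54), a fold of 1.24 (1.05 to 1.46), and 4 of 5 AGAT-/-hArg mice lay above the highest wt mouse. It did not pass the adjustment over all rows (FDR = 0.219, edgeR). It passed when total counts took the place of TMM factors, with 0.42 (FDR = 0.0269, edgeR), when every row with at least 1 read was tested, with 0.33 (FDR = 0.00871, edgeR), and without AGAT-/-hArg mouse 12, with 0.39 (FDR = 0.0418, edgeR). With at least 1 read the SE of mir-145a-3p was 0.09 in place of 0.11. In AGAT-/- against wt mice that filter also took mir-5119-3p from FDR = 2.08e-05 to 6.48e-88 (edgeR). An FDR under that filter is thus not on a par with the main test, and the cause was not tested. Without AGAT-/-hArg mouse 13 the log2 fold change of mir-145a-3p was 0.20 (FDR = 0.487, edgeR). Over all 19 alternatives its FDR was between 0.00871 and 0.487. With total counts the median of all rows tested was 0.12, where it was 0.02 with TMM factors. TMM factors were between 0.893 and 1.03 in wt and between 1.02 and 1.07 in AGAT-/-hArg mice, and the part of library composition in the result was not tested.

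Mir-145b-5p had a log2 fold change of 0.41 (SE 0.19, 95% interval 0.00 to 0.82, FDR = 0.393, edgeR), and 3 of 5 AGAT-/-hArg mice were above the highest wt mouse. Mir-143-5p was at 0.51 (-0.27 to 1.28, FDR = 0.671, edgeR), with 2 mice above, and between 0.26, without AGAT-/-hArg mouse 12, and 0.76, without wt mouse 1, with a mouse left out. Mir-126a-3p, the endothelial row, was at -0.75 (-1.54 to 0.04, FDR = 0.446, edgeR), and 2 AGAT-/-hArg mice were below the lowest wt mouse. Mir-126b-3p, with 11 reads, was at 0.10 (-1.54 to 1.73), and turned to -0.20 without wt mouse 1 and to -0.00468 in limma-voom. With all rows of a precursor number summed, mir-145 was at 0.34 (SE 0.11, FDR = 0.0939, edgeR), mir-143 at 0.54 (SE 0.37, FDR = 0.628, edgeR) and mir-126 at -0.23 (SE 0.32, FDR = 0.899, edgeR). The sum for mir-126 pools rows read from opposite strands of the same place.

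Of the 569 rows tested, 17 or 2.99% differed at FDR ≤ 0.05, with 9 higher and 8 lower, and 0 of the 5 vascular rows among them. With total counts 24 differed, 16 higher and 8 lower, mir-145a-3p among the higher. At an unadjusted p under 0.05 the count was 71 rows or 12.5% in edgeR's test, and 2 of the 5, mir-145a-3p and mir-145b-5p. DESeq2 gave an FDR for 2 of the 5, mir-145a-3p and mir-145b-5p, and called 0 of them, both at an unadjusted p under 0.05, which 52 or 9.14% of the 569 rows reached; it called 22 rows in all. Limma-voom called 0 of the 5, with 1 at an unadjusted p under 0.05, which 72 rows or 12.7% reached, and called 18 rows in all. The median log2 fold change was 0.31 over the 5 rows and 0.02 over all rows tested. The rows with the lowest FDR were mir-378b-3p with a fold of 3.92, mir-3969-5p with 0.0238 and mir-5119-3p with 0.0426. The log2 fold change of mir-5119-3p, -4.55, was -3.94 without wt mouse 5 and -5.57 without AGAT-/-hArg mouse 11. The comparisons share groups of mice, so their values for a row are not independent.

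**Figure D3:**
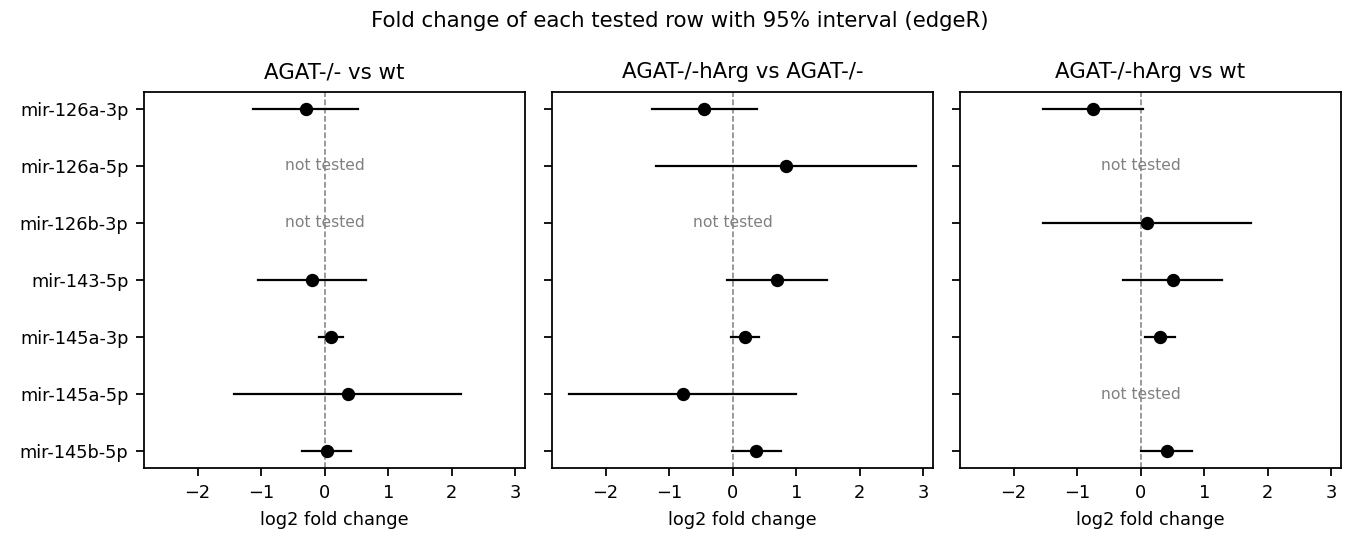
Log2 fold change of each vascular row tested (points) with its 95% interval (lines) in the 3 comparisons, from edgeR's test; a dashed line marks 0. Only the intervals of mir-145a-3p (0.07 to 0.54) and mir-145b-5p (0.00 to 0.82) in AGAT-/-hArg against wt mice do not cross 0, and neither passed FDR ≤ 0.05.

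Mir-145a-3p and mir-145b-5p were the rows with a mean of at least 10 reads per library, and their levels were compared across mice with the group means subtracted. Over 15 mice Pearson's r of log2 CPM was 0.47 (permutation p = 0.0766) and Spearman's rho was 0.53 (permutation p = 0.0474), two-sided. As this was the only pair, adjustment over pairs leaves these values as they are. Mice were permuted across groups, with no allowance for the means subtracted or for the wider spread of AGAT-/-hArg mice, so these p may be too small. Without the 2 mice farthest from the median of mir-145a-3p, r was 0.24, so the value over all 15 mice with group means subtracted rests on those mice. Within the 10 mice of lane 8, a setting chosen after seeing the data, r was 0.42 (permutation p = 0.221) and rho 0.47 (permutation p = 0.180), and r was 0.51 without the 2 farthest of these mice. Lane 2 held the 5 AGAT-/-hArg mice only, too few for a correlation. With group means kept, r was 0.60 (permutation p = 0.0171), and 0.54 without the 2 farthest mice. That setting also holds differences between groups and lanes, so it does not measure variation between mice alone. Scaled by total counts, r was 0.45 (permutation p = 0.0917), and 0.16 without the 2 farthest mice.

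**Figure D4:**
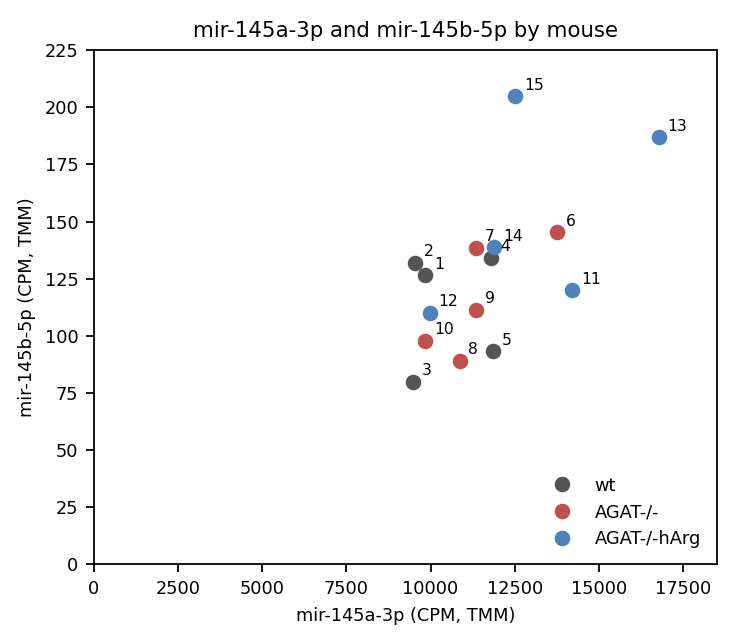
Level of mir-145b-5p against that of mir-145a-3p (both CPM, TMM) in each of the 15 mice, coloured by group and numbered by mouse. AGAT-/-hArg mouse 13 is high for both rows, at 16769 and 187 CPM, while AGAT-/-hArg mouse 15 is highest for mir-145b-5p, at 205 CPM, with 12515 CPM of mir-145a-3p.

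The rows most like mir-145a-3p across the mice were mir-139-5p with r = 0.77, mir-501-3p with 0.66 and mir-155-5p with 0.60, among 227 rows with a mean of at least 10 reads per library (group means subtracted, 15 mice). Spearman's rho was 0.73, 0.68 and 0.59. After adjustment over the 227 rows none passed (permutation p = 0.000700, 0.00778 and 0.0187; Benjamini-Hochberg 0.159, 0.561 and 0.561). Without the 2 mice farthest from the median of mir-145a-3p, r was 0.59, 0.33 and 0.41.

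Other miRNAs of the vessel wall were described for context. Of 44 rows of other endothelial and angiogenesis miRNAs, 19 were at 0 in every library, and the most abundant was mir-322-5p, at 26137 ± 2975 CPM in wt, 23994 ± 1205 CPM in AGAT-/- and 24765 ± 1807 CPM in AGAT-/-hArg mice (SD, n = 5 each). In AGAT-/- against wt mice 1 of 23 rows tested passed, mir-130a-5p, which rose from 12.7 ± 4.05 to 31.6 ± 6.20 CPM (SD, n = 5 each; log2 fold change 1.26, SE 0.29, FDR = 0.0216, edgeR). It did not pass without wt mouse 2 (FDR = 0.0778, edgeR), wt mouse 4 (0.0522), AGAT-/- mouse 7 (0.0701) or AGAT-/- mouse 8 (0.0615), nor with animal number added as a covariate (0.171). Its log2 fold change was between 1.14 and 1.29 in these fits. In AGAT-/-hArg against AGAT-/- mice 0 of 23 passed and against wt mice 0 of 24. The medians of these rows in the 3 comparisons were 0.04, -0.07 and -0.04 on the log2 scale, against -0.04, 0.02 and 0.02 over all rows tested.

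Of 18 rows of other smooth muscle miRNAs, 6 were at 0, and the most abundant was mir-146a-5p, at 4157 ± 577 CPM in wt, 4061 ± 767 CPM in AGAT-/- and 3987 ± 319 CPM in AGAT-/-hArg mice (SD, n = 5 each). Both arms of mir-221 and mir-222 are also in the endothelial list, and both arms of mir-21a are also among the fibroblast rows below. Sums and medians of these lists are therefore not separate. Mir-31-5p was the row of the 12 tested that passed. Levels were 1151 ± 108 CPM in wt mice and rose to 1732 ± 230 CPM without AGAT (SD, n = 5 each; log2 fold change 0.57, SE 0.10, FDR = 0.00168, edgeR) and was at 1597 ± 149 CPM in AGAT-/-hArg mice (0.46 against wt, SE 0.10, FDR = 0.00763, edgeR). Once animal number was added as a covariate, it no longer passed between AGAT-/- and wt mice (log2 fold change 0.51, FDR = 0.0625, edgeR). That fit was not run for AGAT-/-hArg mice. In AGAT-/-hArg against AGAT-/- mice 0 of 12 passed. The medians of the smooth muscle rows in the 3 comparisons were -0.12, -0.05 and -0.15.

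Markers of other cells of the LV were summed in each library. Cardiac muscle rows, 6 of 14 at 0, summed to 1972 ± 111 CPM in wt, 2195 ± 297 CPM in AGAT-/- and 2293 ± 166 CPM in AGAT-/-hArg mice (SD, n = 5 each). Mir-499-5p, the most abundant of them, which is made from a myosin gene of heart muscle, passed in AGAT-/-hArg against wt mice, from 748 ± 67.2 to 1017 ± 87.1 CPM (SD, n = 5 each; log2 fold change 0.43, SE 0.10, FDR = 0.0131, edgeR). It did not pass without wt mouse 5 (log2 fold change 0.39, FDR = 0.0659, edgeR) or AGAT-/-hArg mouse 15 (0.40, FDR = 0.0554, edgeR), and its log2 fold change was between 0.39 and 0.49 with a mouse left out. AGAT-/- mice were nearly as high, at 978 ± 115 CPM (SD, n = 5), with a log2 fold change of 0.36 against wt mice (SE 0.10, FDR = 0.0639, edgeR), and AGAT-/-hArg mice differed from them by 0.06 (SE 0.10). Against AGAT-/- mice 0 of 8 cardiac rows passed, and 0 of 7 between AGAT-/- and wt mice.

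Red blood cell rows summed to 7002 ± 580 CPM in wt, 7215 ± 562 CPM in AGAT-/- and 7103 ± 476 CPM in AGAT-/-hArg mice (SD, n = 5 each), with mir-486a-5p the most abundant and with mir-144-3p and both arms of mir-451a at 0. Leukocyte rows summed to 2924 ± 244, 2903 ± 249 and 3176 ± 322 CPM in the same order (SD, n = 5 each), with 97.0% of their reads on mir-155-5p, while mir-142a-5p, mir-150-5p and mir-223-3p were at 0. Fibroblast rows, 6 of 12 at 0, summed to 2493 ± 136, 2201 ± 218 and 2276 ± 133 CPM (SD, n = 5 each), with mir-199b-5p the most abundant. No row of these 3 lists passed FDR ≤ 0.05 in edgeR's test in any comparison. Medians in the 3 comparisons were 0.01, 0.02 and 0.06 for red blood cell rows, -0.05, 0.06 and -0.04 for leukocyte rows, -0.30, 0.14 and -0.17 for fibroblast rows and -0.04, 0.08 and 0.14 for cardiac muscle rows. The part of cell content in the levels of the vascular rows was not tested.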

How the data were processed

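LV tissue of 15 mice was sequenced from TruSeq small RNA libraries. The authors used the CLC Genomics Workbench to map reads against miRBase and deposited unnormalized counts for each mature miRNA; the release and mismatch settings are not given in the sources used here. The submitters' processing notes name GRCm38. Groups came from the labels. Rows whose 10 compared libraries together held more than 10 reads were tested with edgeR 4.0.16 (R 4.3.3), using TMM factors, glmQLFit and glmQLFTest, with Benjamini-Hochberg adjustment over all rows. Libraries held between 365634 and 570492 reads, so a row of few reads is known only within wide counting error. Log2 CPM used a prior count of 1. Permutation tests used 100000 resamples. Alternatives were DESeq2 1.42.0, limma-voom (limma 3.58.1), other scalings, filters and sample sets, the 3 most abundant rows left out, summed rows, the animal number as a covariate, and each mouse left out. The animal number was used in AGAT-/- against wt mice only. Summaries used Python 3.11.15 with scipy 1.17.1.

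Every vascular row was accounted for. Of the other lists, rows past the FDR and the most abundant row are named; further named rows are the 3 with the lowest FDR per comparison and the 3 most correlated with mir-145a-3p. Members and lists were chosen with earlier results of these data known. Each of the 30 pairs of libraries within a group differed beyond counting noise (chi-square divided by its degrees of freedom was 2.53 to 16.8). A planned test of arm ratios was not run, since none of the 5 vascular precursors had a mean of 10 reads on both arms.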

Additional observations from a re-analysis of the deposited data

Results flagged for a closer look

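In 21 groups of 5 mice, for the 7 rows tested in any comparison, 2 groups had a mouse far from the others relative to the range of the group, where chance gives about 1 in 20 groups for continuous values. That rate does not hold for counts this low, since a group with 1 read in 1 mouse and 0 in the others always stands out in this way and a group at 0 never does. Mir-126a-5p was at 7.14 CPM in AGAT-/- mouse 6, which is 3 reads, while the other AGAT-/- mice had 1 read or none. Mir-126b-3p was at 2.17 CPM in AGAT-/- mouse 10, which is 1 read, while the other AGAT-/- mice had none. Both rest on counts of at most 3 reads.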

How the results depend on the processing

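The 16 log2 fold changes of vascular rows gave 268 values under the alternatives. Of these, 254 kept their direction and their side of the threshold, 4 kept their direction with no FDR given by DESeq2, 3 came to pass it and 7 changed sign. In AGAT-/- against wt mice mir-126a-3p was at 0.28 with the animal number as a covariate, and leaving out mice in turn mir-143-5p ranged from -0.49 to 0.0396 and mir-145b-5p from -0.0489 to 0.13 (-0.00313 without AGAT-/- mouse 6, -0.0393 without mouse 7). In AGAT-/-hArg against wt mice mir-126b-3p was at -0.00468 in limma-voom and between -0.20 and 0.41 with a mouse left out. The causes were not tested. Vascular rows called in AGAT-/-hArg against wt mice were 1 with total counts and 1 when rows with at least 1 read were tested, in place of 0, and 0 to 1 in fits without a mouse, each time mir-145a-3p. All rows called in that comparison were 28 with at least 1 read, in place of 17, and between 10 and 20 with a mouse left out (11 without wt mouse 5, 10 without AGAT-/-hArg mouse 15). In AGAT-/-hArg against AGAT-/- mice they were 8 with at least 1 read and 2 with more than 10 reads in every library, in place of 4; these filters change the rows tested. In AGAT-/- against wt mice they were between 8 and 18 over all alternatives, in place of 12. The correlation of mir-145a-3p with mir-145b-5p was 0.603 with group means kept, in place of 0.469, and 0.449 with total counts. Alternatives of the arm ratios were not run, as the ratios could not be fitted. No paired analysis was possible because which mice shared a litter is not given in the sources used here. Mice were tested as independent, and effects of litter were not tested. Rows under about 10 reads per library are limited by depth.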
